A study of Caenorhabditis elegans with 2 samples.

Results

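The genes described here encode the translation factors and aminoacyl-tRNA synthetases of Caenorhabditis elegans. They were taken by symbol from the Ensembl release 115 annotation of WBcel235: protein-coding genes named eif-, eef-, ife-, iff- or ifg- with a number or subunit, together with ifet-1, inf-1 and the synthetase genes whose names end in ars-1 or ars-2. The rule found 72 genes among 19973 nuclear protein-coding genes, 41 of them initiation and elongation factors and 31 synthetases. The rule itself uses no measured value. Genes of the same machinery with other names, such as fars-3, are not counted among the 72.

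ChIP-seq, the sequencing of DNA that is precipitated with a chromatin protein, was used to map APTF-3, a transcription factor of the AP-2 family, in whole young adult worms. There was 1 group, APTF-3 ChIP, with 2 biological replicates and no second condition. All animals were of strain OP765, which carries the integrated transgene wgIs765 (aptf-3 fused to TY1, EGFP and 3xFLAG in a fosmid clone, with the unc-119(+) marker) in an unc-119 (tm4063) background. They were synchronised as starved L1 larvae after bleaching, collected at 64 hours, and their chromatin was sonicated to 200 to 800 bp and precipitated with an anti-GFP antibody. The values therefore concern the tagged transgene product, pooled over all tissues of the animal, and sites used in different cell types cannot be told apart.

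Translation starts when eIF4E binds the cap of an mRNA and, with eIF4G and eIF4A, recruits the small ribosomal subunit, which carries eIF3 and the initiator tRNA held by eIF2. eIF2B recharges eIF2 with GTP, and this exchange is the step that eIF2 kinases slow under stress. Elongation factors eEF1A and eEF2 then deliver charged tRNAs and move the ribosome along, while each synthetase loads an amino acid onto its tRNAs. Several worm eIF4E genes and the eIF5A gene iff-1 act mainly in the germ line, and many synthetase names numbered 2 belong to mitochondrial enzymes.

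The deposited data were peak lists. The series-level thresholded list held 785 peaks and is called the main list. The ranked list behind it also held weak peaks, far below the threshold. Each peak has a summit and a signal in the authors' units, whose scale no label or header defines. In the ranked lists it also has an IDR, the irreproducible discovery rate, at which low values mark peaks that repeat. Each list has its own IDR values, and those in a single replicate's list do not measure agreement between the 2 replicates. The median signal was 76.6 in the main list and 21.6 in the ranked list. The thresholded lists of the replicates held 178 peaks (replicate 1) and 241 (replicate 2). A gene was counted as having a summit when one lay in its promoter window, 1000 bp upstream to 200 bp downstream of the annotated 5′ end. Sequencing depth is unknown, and with 1 group of 2 replicates no test between conditions exists, so shares are set beside those of all protein-coding genes as a description.

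Within their promoter windows, 3 of the 72 genes held a main-list summit, namely ifet-1, eif-2Bgamma and ife-1, or 4.17% (exact binomial 95% interval over genes 0.868 to 11.7), against 1.49% of all protein-coding genes. For comparison, 10 of 81 cytoplasmic ribosomal protein genes had one. The interval for the 72 genes includes the genome-wide share. By role, 2 were in the cap-binding and eIF4 group, ifet-1 and ife-1, and 1 was in the eIF2 and eIF2B group. The count was 0 of 31 for synthetase genes and 0 of 8 for elongation factor and eIF5A genes, and at a share of 1.49% a count of 0 in lists of that size sets them apart from neither the other roles nor all genes. In the conservative IDR list 3 of 72 genes had a summit, against 1.38% of all genes, with ife-3 in place of ife-1. In the thresholded list of replicate 1 there were 0 of 72 (exact binomial upper bound 4.99%), against 0.416% of all genes, and in that of replicate 2 there was 1, ifet-1, against 0.486%. By the IDR in the ranked list, 3 of 72 genes had a summit at 0.01 or less, against 1.5% of all genes, and 7 of 72 had one at 0.05 or less, or 9.72% against 4.09%. The 4 added by the wider limit were ife-3, vars-1, eif-2beta and eif-3.J.

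The 3 main-list peaks are shown first, since the count above rests on them. They are 296 bases each, read 5′ to 3′ in the direction of the named gene, from the WBcel235 genome (ce11 coordinates), with annotated exon bases of any gene in capitals. The ifet-1 peak is at chrIII:4475512-4475807 (minus strand), the eif-2Bgamma peak at chrII:6968265-6968560 (minus strand) and the ife-1 peak at chrIII:13342633-13342928 (plus strand).
ifet-1: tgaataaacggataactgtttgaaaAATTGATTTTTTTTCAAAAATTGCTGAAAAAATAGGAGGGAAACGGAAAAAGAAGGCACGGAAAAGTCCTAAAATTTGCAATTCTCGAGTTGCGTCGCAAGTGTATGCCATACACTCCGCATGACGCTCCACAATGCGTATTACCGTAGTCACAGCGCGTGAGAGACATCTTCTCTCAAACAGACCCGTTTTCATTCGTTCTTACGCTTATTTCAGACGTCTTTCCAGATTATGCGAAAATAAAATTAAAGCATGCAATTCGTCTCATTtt
eif-2Bgamma: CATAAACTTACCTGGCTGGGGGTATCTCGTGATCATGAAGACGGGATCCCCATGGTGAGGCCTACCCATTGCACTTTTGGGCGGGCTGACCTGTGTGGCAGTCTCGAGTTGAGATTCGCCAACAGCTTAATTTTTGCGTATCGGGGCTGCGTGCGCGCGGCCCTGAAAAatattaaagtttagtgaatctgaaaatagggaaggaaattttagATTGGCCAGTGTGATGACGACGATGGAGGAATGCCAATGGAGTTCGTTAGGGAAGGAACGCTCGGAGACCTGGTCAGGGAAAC
ife-1: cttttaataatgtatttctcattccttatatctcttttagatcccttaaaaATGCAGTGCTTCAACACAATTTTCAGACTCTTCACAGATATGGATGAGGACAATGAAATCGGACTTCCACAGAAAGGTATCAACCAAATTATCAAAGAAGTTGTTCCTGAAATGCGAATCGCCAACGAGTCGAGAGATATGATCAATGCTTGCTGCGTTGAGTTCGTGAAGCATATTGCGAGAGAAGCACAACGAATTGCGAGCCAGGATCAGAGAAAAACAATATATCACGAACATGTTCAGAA

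The strongest summit belonged to ifet-1 (WBGene00004132), which encodes the eIF4E-binding repressor of maternal mRNA translation in the germ line. Its signal was 89.3, rank 229 of 785 in the main list, at an IDR of 0.00127. Replicate 1 had a signal of 39.4 at this place and replicate 2 a signal of 50.9, at an IDR of 0.112 and 0.00504 in their own lists, and the peak passed the threshold in the list of replicate 2 only. The summit stood 510 bp upstream of ifet-1. It was nearer to rps-1, a small-subunit ribosomal protein gene on the other strand, whose 5′ end was 258 bp away, and the same summit lay in the windows of both genes. The capitals in the ifet-1 sequence are exons of the noncoding RNA genes F56F3.10 and F56F3.11, which overlap on opposite strands. The summit fell inside F56F3.10 and 3 bp from the 5′ end of F56F3.11. A second, weaker ranked summit of ifet-1, with a signal of 47.8 and an IDR of 0.178, lay 45 bp downstream of its own 5′ end.

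The eif-2Bgamma gene (WBGene00004090) encodes a subunit of eIF2B, the exchange factor of eIF2. Its main-list summit had a signal of 82.7, rank 296 of 785, at an IDR of 0.0032. The replicates were close at this peak, with signals of 40.3 in replicate 1 and 40.8 in replicate 2, but their own IDR values were 0.494 and 0.0347 and neither replicate's thresholded list held it. The summit lay 765 bp upstream, inside the neighbouring coding gene C15F1.5 on the same strand and inside sup-39, which the annotation gives as a small nuclear RNA gene. The first, long run of capitals in the eif-2Bgamma sequence includes the exons of sup-39 and of the noncoding gene C15F1.14 opposite it. This stretch recurs in the genome: of the 247 words of 50 bases in the peak, 79 were found more than once, with up to 11 copies, or 32.0% of the words. Reads from such copies are hard to place, and no label or header says how the authors' mapping treated them. By contrast, 0 of the 247 words of the ifet-1 peak and 0 of those of the ife-1 peak had a second copy. Among the strongest ranked peaks of 60 of the 72 genes, 56 had no repeated word (93.3%). In the whole main list, 482 of 785 peaks had none (61.4%). These 2 shares cover unlike sets, since only 3 of the 60 peaks are in the main list. The share over all ranked peaks was not computed.

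The ife-1 gene (WBGene00002059) encodes an eIF4E isoform of the germ line. Its summit had a signal of 63.9, rank 688 of 785 and so near the lower end of the main list, at an IDR of 0.00596. Replicate 1 had a signal of 25.7 and replicate 2 a signal of 36.4 there, at IDR values of 0.295 and 0.0541. The summit lay 636 bp upstream of ife-1, in a coding exon of dro-1 and 97 bp past the 5′ end of dro-1, and the 5′ end of ife-1 itself lies within dro-1. The capitals in the ife-1 sequence are that exon. In the conservative ranked list the same peak had an IDR of 0.0216, which left it out of the conservative thresholded list. Given each summit only to the nearest protein-coding 5′ end, the count was 1 of 72, eif-2Bgamma, against 1.17% of all genes, since the ifet-1 summit went to rps-1 and the ife-1 summit to dro-1.

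**Figure D1:**
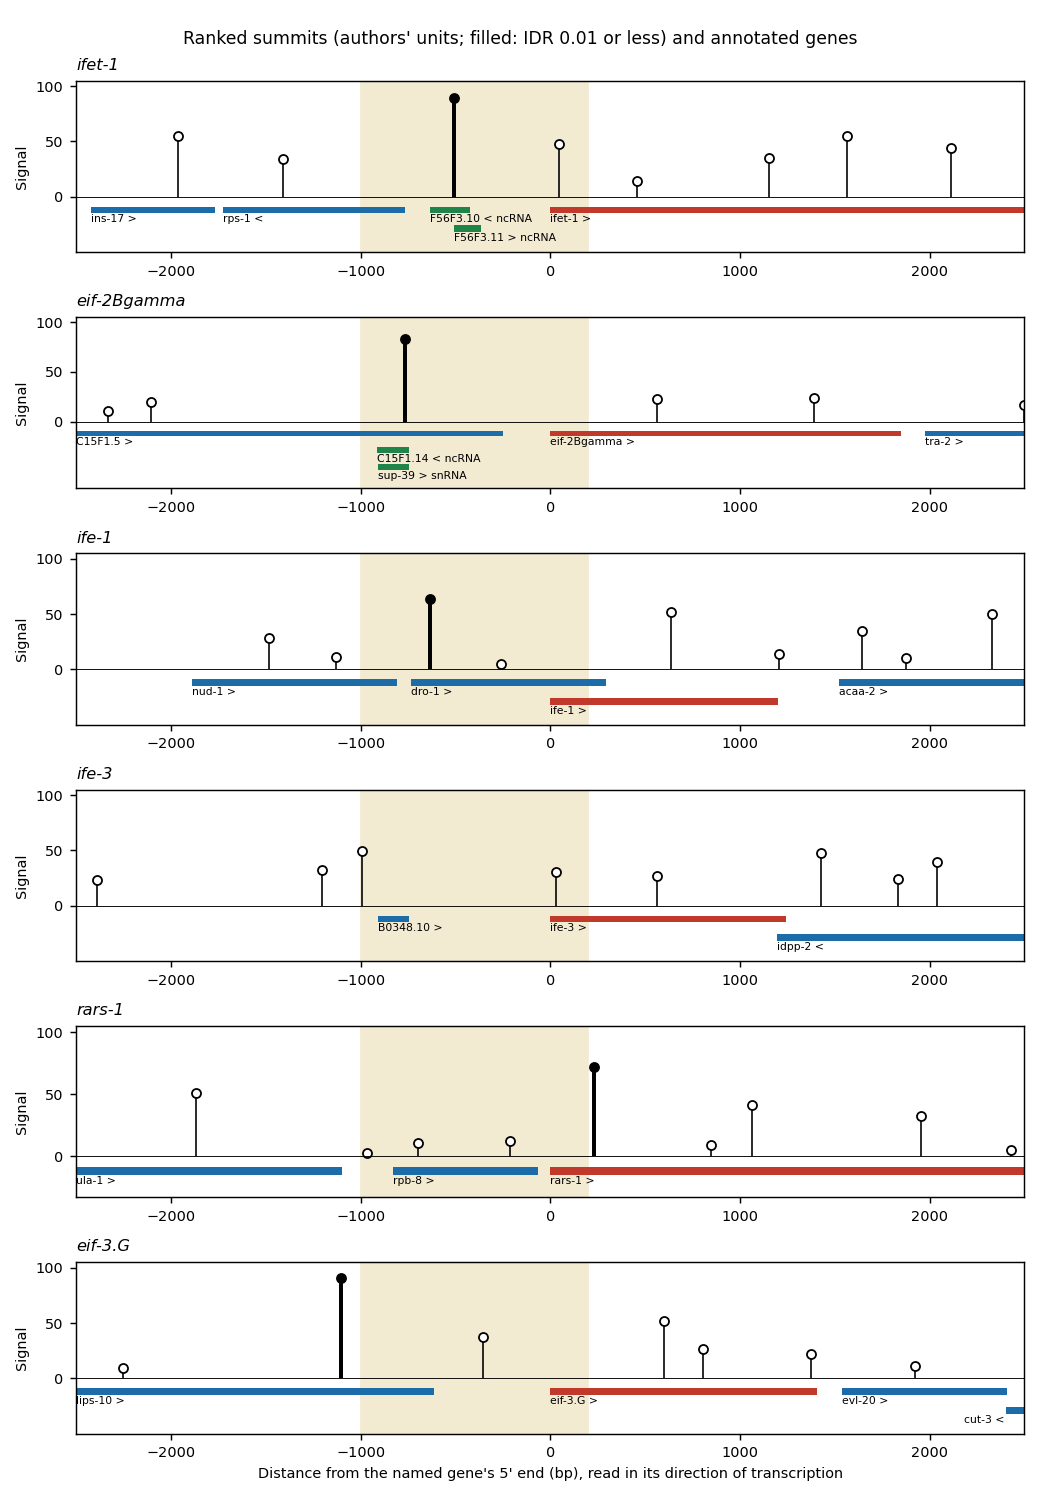
Ranked summits around 6 genes, plotted as signal in the authors' units (vertical axis, above 0) against distance from the gene's 5′ end in bp (horizontal axis). Filled points are summits with an IDR of 0.01 or less, the shaded band is the promoter window, and bars below 0 are annotated genes (red for the named gene, blue for other coding genes, green for noncoding genes, with arrowheads relative to the named gene). The tall summits of ifet-1, eif-2Bgamma and ife-1 stand 510 to 765 bp upstream, over other annotated genes, while those of rars-1 and eif-3.G stand 28 and 103 bp outside the window.

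The map of the 6 loci shows that the strong upstream summits were not at the factors' own 5′ ends. None of the 3 main-list summits lay within 500 bp upstream to 100 bp downstream, a window in which 0 of 72 genes and 184 of all protein-coding genes (0.921%) had one. Of the 7 genes with an IDR of 0.05 or less, eif-2beta alone had its summit within 500 bp of its 5′ end, at 153 bp upstream.

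The ife-3 gene (WBGene00002061) encodes another eIF4E isoform and was the only one of the 72 with a summit in the conservative list and not in the main list. The peak, 296 bases at chrV:8674-8969 (minus strand), had a signal of 49.7, an IDR of 0.0464 in the main ranked list and 0.00474 in the conservative one. Replicate 1 had a signal of 37.5 there, at an IDR of 0.0536, and replicate 2 had no summit within 100 bp. The summit was 994 bp upstream of ife-3, 6 bp inside the window, and 83 bp upstream of the small coding gene B0348.10, whose exon is in capitals. The sequence is shown because its GC content of 55.4% was the highest of the 9 peaks whose sequence was examined.
ife-3: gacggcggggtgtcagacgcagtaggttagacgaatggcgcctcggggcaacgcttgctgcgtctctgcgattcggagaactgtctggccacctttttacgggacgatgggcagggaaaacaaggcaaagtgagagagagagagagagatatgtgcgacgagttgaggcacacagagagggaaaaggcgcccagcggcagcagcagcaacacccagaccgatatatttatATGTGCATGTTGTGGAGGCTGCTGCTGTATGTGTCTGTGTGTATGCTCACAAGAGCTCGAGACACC

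The window edge decided further members. A main-list summit lay just outside it for rars-1, eif-3.G and iars-2. For rars-1 (WBGene00004679), a cytoplasmic arginyl-tRNA synthetase gene, the summit was 228 bp downstream of the 5′ end, 28 bp outside, at chrIII:4916801-4917096 (minus strand). Its signal was 71.8 at an IDR of 0.00442, with 42.6 in replicate 1 and 35.4 in replicate 2. It was the only main-list summit inside the body of any of the 72 genes (1.39%, against 1.84% of all protein-coding genes). Within its window rars-1 had no signal above 12.6 in the series-level ranked list, and replicate 1 had at most 14.4 in its own ranked list. For eif-3.G (WBGene00001230), an eIF3 subunit gene, the summit was 1103 bp upstream, 103 bp outside, at chrII:8441516-8441811 (plus strand), inside lips-10. Its signal of 91.2, at an IDR of 0.00111, was above that of ifet-1, and replicate 1 had 40.6 and replicate 2 had 54.4, past the threshold in the list of replicate 2. For iars-2, an isoleucyl-tRNA synthetase gene, the summit was 1049 bp upstream, 49 bp outside, with a signal of 68.8 and 145 bp past the 5′ end of nola-3. All 3 were also in the conservative list. The sequences at rars-1 and eif-3.G are given in the same way, with exons of rars-1 itself and of lips-10 in capitals.
rars-1: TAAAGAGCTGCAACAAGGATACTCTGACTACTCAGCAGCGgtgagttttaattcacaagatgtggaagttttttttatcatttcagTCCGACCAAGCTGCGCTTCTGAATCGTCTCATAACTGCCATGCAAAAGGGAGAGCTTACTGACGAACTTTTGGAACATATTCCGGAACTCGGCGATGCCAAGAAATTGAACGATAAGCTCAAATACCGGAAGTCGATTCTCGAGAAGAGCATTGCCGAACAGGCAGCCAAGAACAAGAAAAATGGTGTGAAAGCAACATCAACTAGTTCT
eif-3.G: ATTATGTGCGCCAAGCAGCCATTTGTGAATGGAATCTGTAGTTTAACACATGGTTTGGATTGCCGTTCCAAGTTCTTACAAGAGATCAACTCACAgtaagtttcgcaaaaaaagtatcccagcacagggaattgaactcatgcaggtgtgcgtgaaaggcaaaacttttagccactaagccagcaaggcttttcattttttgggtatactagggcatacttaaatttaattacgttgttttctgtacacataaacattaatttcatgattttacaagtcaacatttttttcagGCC

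Weaker summits were common. A ranked-list summit lay in the window of 60 of 72 genes, or 83.3% (exact binomial 95% interval 72.7 to 91.1), against 69.8% of all protein-coding genes, and 73 of 81 ribosomal protein genes had one (90.1%). With genes lacking a summit set to 0, the median of the strongest signal per gene was 25.7 for the 72 genes (quartiles 16.4 to 37.5) against 20.6 for all genes (0 to 32.5), and 32.5 for the ribosomal protein genes. Among genes with a summit only, the medians were 29.0 and 27.5. A signal above 50 was found for 10 of 72 genes, or 13.9%, against 5.57% of all genes, and above 60 for 6, or 8.33%, against 2.31%. A signal above 30 was found for 36.1%, against 29.7%. With genes lacking a summit counted as 0, the mean number of summits was 1.49 for the 72 genes against 1.19 for all genes. The larger share of genes with any summit enters this mean. Of the 72 genes, 24 had 1 summit, 26 had 2 and 10 had 3 or more, with at most 4. Of all 19973 genes, 6321 had 1, 5557 had 2 and 2069 had 3 or more, with at most 5. The IDR of the strongest summit was between 0.1 and 0.5 for 38 of the 72 genes (52.8% against 42.5% of all genes) and above 0.5 for 11 (15.3% against 20.2%).

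**Figure D2:**
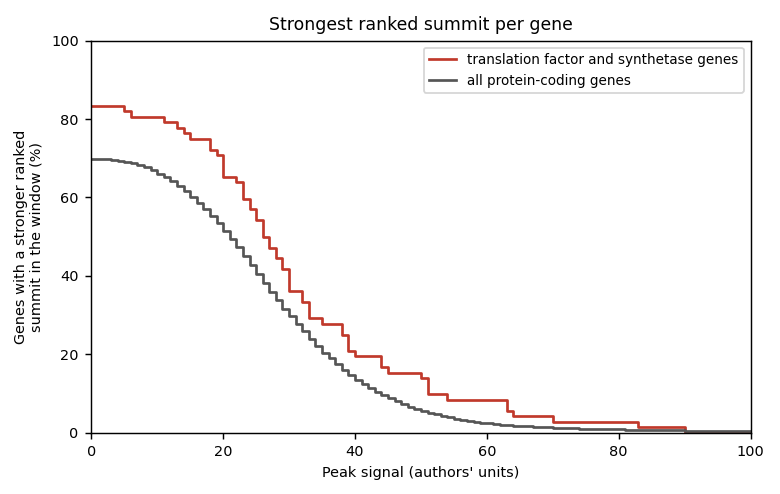
Percentage of genes (vertical axis) whose strongest ranked summit in the promoter window exceeds a given signal in the authors' units (horizontal axis), for the 72 translation factor and synthetase genes (red) and all protein-coding genes (grey). The red curve begins at 83.3% and the grey one at 69.8%, and at a signal of 50 they stand at 13.9% and 5.57%.

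The curve of signal shows the 72 genes above all protein-coding genes over most of the range. The upstream surroundings of these genes also differed from those of other genes. A divergent coding neighbour started within 1000 bp for 31 of 72 genes, or 43.1% against 17.2% of all genes, and 14 had no coding gene within 1000 bp upstream, or 19.4% against 48.0%. Among genes with a divergent neighbour, 80.6% of the 72 and 75.2% of all genes had a ranked summit. Among genes with no near neighbour the shares were 85.7% (12 of 14) and 64.9%, and among those with a neighbour on the same strand 82.6% and 73.6%. The part of neighbouring genes in the overall difference was not tested.

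The cap-binding and eIF4 genes held the widest spread. Of 9 genes, 7 had a ranked summit (77.8%, against 69.8% of all protein-coding genes). Signals ran from 4.49 to 89.3, with a median of 31.8 over all 9, against 20.6 for all protein-coding genes. Below ifet-1, ife-1 and ife-3 came ife-4, an eIF4E isoform gene, with a signal of 39.6 at an IDR of 0.284, with 20.1 in replicate 1 and 21.6 in replicate 2. Its summit was 415 bp upstream with no annotated gene over it. The lowest value, 4.49, was that of ifg-1, the eIF4G gene. For inf-1, the eIF4A gene, the series-level ranked list had no summit, and the ranked list of replicate 2 had one of 16.75. The levels thus ran from low to high within this group of genes.

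The eIF2 and eIF2B group took all genes with symbols starting eif-2. Its 10 genes therefore also held eif-2A (27.1) and eif-2D (25.1), which encode separate factors and no subunit of either complex. Of the 10 genes, 9 had a ranked summit (90.0% against 69.8% of all protein-coding genes) and the median was 27.4, against 20.6. Below eif-2Bgamma came the subunit genes of eIF2 itself. The beta subunit gene eif-2beta (WBGene00010560) had a signal of 63.0 at an IDR of 0.0158, 153 bp upstream and over a pair of noncoding genes both named K04G2.15. Replicate 1 had a signal of 28.5 and replicate 2 a signal of 31.6 there. The alpha subunit gene eif-2alpha, whose product is the target of the eIF2 kinases, had 38.2 at an IDR of 0.207, with 18.4 in replicate 1 and 20.5 in replicate 2, over a coding exon of phb-1, a prohibitin gene. The other 4 eIF2B subunit genes were lower, eif-2Balpha at 27.8, eif-2Bdelta at 23.1, eif-2Bbeta at 17.3 and eif-2Bepsilon with no ranked summit, so the eif-2Bgamma level was not shared by its complex.

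Of the 11 eIF3 genes, 10 had a ranked summit (90.9%, against 69.8% of all protein-coding genes). Signals ran from 10.2 to 69.0, with a median of 29.3, against 20.6 for all protein-coding genes. The highest was eif-3.J (WBGene00012738), with 69.0 at an IDR of 0.0181, 666 bp upstream and outside any annotated gene. Its replicates had 30.5 and 34.5, at IDR values of 0.252 and 0.74. The scaffold subunit gene eif-3.B (WBGene00001225) had 50.8 at an IDR of 0.0774, 314 bp upstream and likewise outside any gene, with 31.5 in replicate 1 and 23.8 in replicate 2. Inside its window eif-3.G had 37.3. Of the 3 genes of eIF1, eIF1A and eIF6, eif-6, whose product keeps the large ribosomal subunit from joining early, had 53.6 at an IDR of 0.0651. That summit lay 954 bp upstream in a coding exon of pbs-2, a proteasome subunit gene, with 32.3 in replicate 1 and 20.5 in replicate 2. The eIF1A gene eif-1.A had 34.7.

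Of the 8 elongation factor and eIF5A genes, 7 had a ranked summit (87.5%, against 69.8% of all protein-coding genes). Signals ran from 17.1 to 62.9, with a median of 28.2, against 20.6 for all protein-coding genes. The summit of eef-2 (WBGene00001167), the gene of the translocation factor eEF2, was 6 bp from its 5′ end, the nearest to a 5′ end among the 10 genes above 50. Its signal was 62.9 at an IDR of 0.071, and the replicates differed, with 17.1 in replicate 1 and 44.5 in replicate 2. The eEF1A gene eef-1A.2 had 38.8 and its paralogue eef-1A.1 had 31.1. The eIF5A gene of the germ line, iff-1, had 37.1, with its summit 40 bp upstream of the divergent gene cdk-1 and 239 bp upstream of iff-1.

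Of the 31 synthetase genes, 25 had a ranked summit (80.6%), with a median of 23.0 over all 31, against 29.3 over the 41 factor genes, of which 35 had one (85.4%). The medians of both sets were above the 20.6 of all protein-coding genes, of which 69.8% had a ranked summit. The highest synthetase was gars-1 (WBGene00001744), for glycine, with 50.6 at an IDR of 0.0573, in an intron of its own, 162 bp downstream of its 5′ end. Replicate 1 had 41.2 there and replicate 2 had 18.1. The valine gene vars-1 (WBGene00006935) had 50.3 at an IDR of 0.0492, 828 bp upstream in a coding exon of oma-2, an oocyte maturation gene, with 26.2 in replicate 1 and 24.7 in replicate 2. Next came ears-2 (glutamate) with 44.7, kars-1 (lysine) with 43.7 and rars-2 (arginine) with 43.2. Replicate 1 had 19.4, 24.7 and 18.4 at these genes, and replicate 2 had 21.4, 25.7 and 20.03. The summit of ears-2 was 177 bp downstream in its own coding exon, that of kars-1 was 200 bp downstream, at the edge of the window, and that of rars-2 was 160 bp upstream over the end of C29H12.2. The tryptophan gene wars-1 had 38.2 with no summit within 100 bp in either replicate's ranked list. Of the 20 genes numbered 1, 17 had a ranked summit (85.0%) and the median was 23.1. Of the 11 numbered 2, 8 had one (72.7%) and the median was 19.3. Beside these stand 69.8% and 20.6 for all protein-coding genes.

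**Figure D3:**
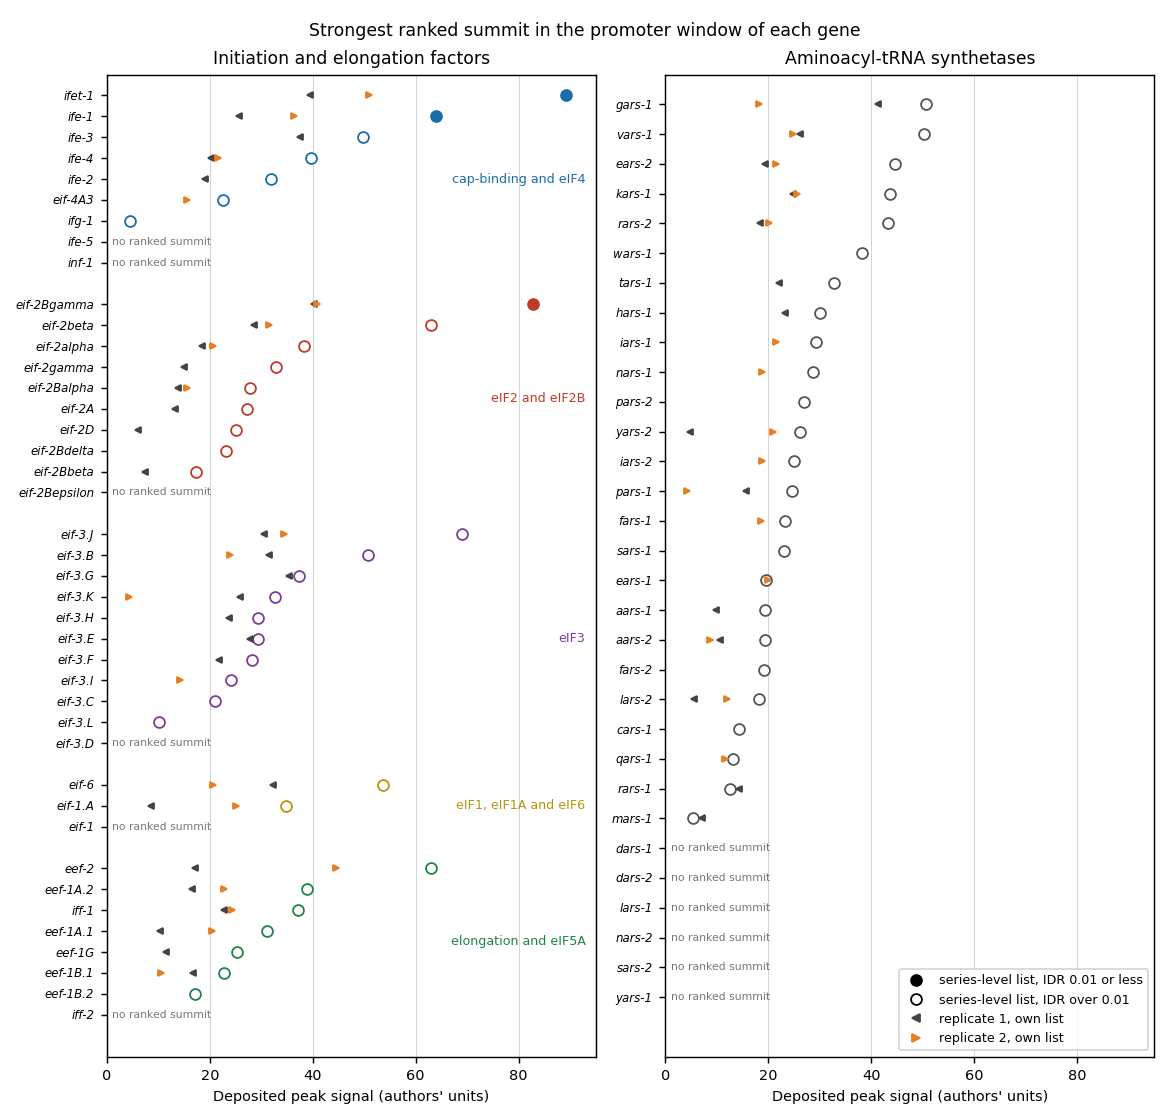
Signal of the strongest ranked summit in the promoter window of each of the 72 genes (circles, authors' units on the horizontal axis), grouped by role, with the signal of the nearest summit within 100 bp in the ranked list of replicate 1 (left-pointing) and of replicate 2 (right-pointing). Filled circles have an IDR of 0.01 or less. Only ifet-1, ife-1 and eif-2Bgamma are filled, the synthetases reach at most 50.6, and 12 genes have no ranked summit.

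The plot by role shows that each role had members with high and with low signals. The 12 genes without a ranked summit were 6 synthetase genes and 6 factor genes. In the replicates' own ranked lists 5 of the 12 had a summit in replicate 1 and 2 in replicate 2. The gene with both, named here after its values were seen, was eif-1, for the start codon selection factor eIF1, with 22.4 in replicate 1 and 12.4 in replicate 2, and 6 genes had neither.

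**Figure D4:**
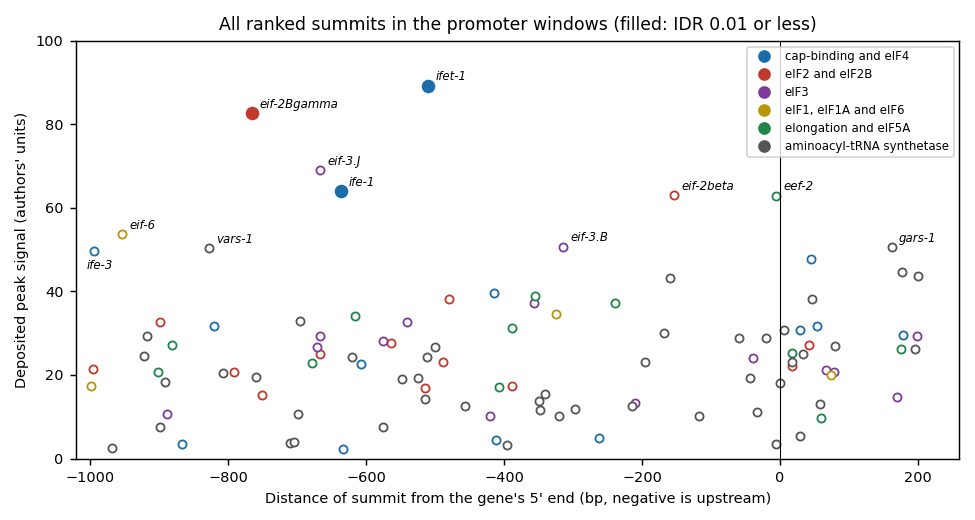
Signal in the authors' units (vertical axis) against distance from the gene's 5′ end in bp (horizontal axis, negative upstream) for all 107 ranked summits in the windows of the 72 genes, coloured by role. Filled points have an IDR of 0.01 or less, and these 3 lie between 510 and 765 bp upstream.

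Over all 107 ranked summits the signal ran from 2.22 to 89.3 with a median of 24.1, and the plot of distance shows them across the whole window. The strongest summit of a gene lay within 200 bp of its 5′ end for 23 of 60 genes (38.3% against 36.6% of all genes with a summit) and more than 500 bp upstream for another 23 (38.3% against 39.5%). The median position was 389 bp upstream, against 373 bp upstream for all genes. Of the 60 strongest summits, 18 were nearer to another coding gene's 5′ end (30% against 18.5%) and 20 lay inside another coding gene (33.3% against 29.6%). The summit of 1 gene, eif-2Bgamma, was within 100 bp of a tRNA, snoRNA or snRNA gene (1.67% against 1.08%). The median GC content within 100 bp of the summits was 39.5%, against 39.8%, and the median soft-masked share of the peaks was 24.2%, against 22.6%. The nearest main-list summit was a median of 36354 bp from the 5′ end of the 72 genes, against 51587 bp for all genes, and 11 of 72 had one within 5000 bp (15.3% against 7.96%).

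**Figure D5:**
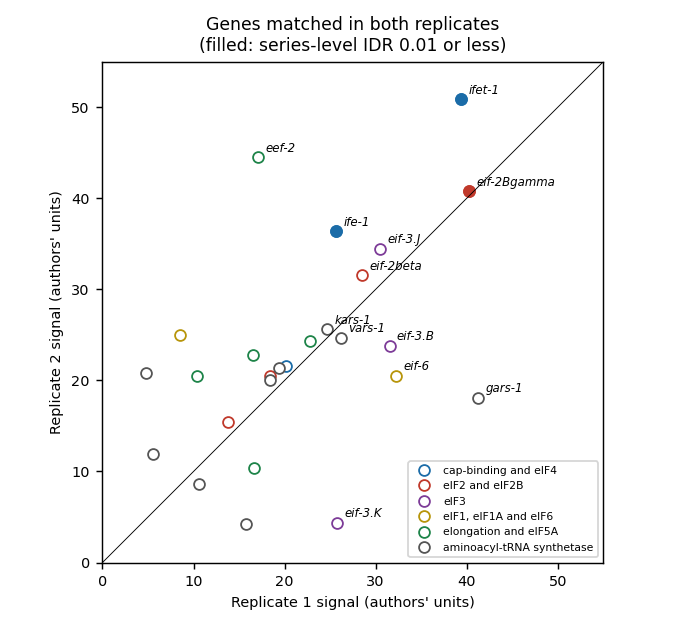
Signal in replicate 2 (vertical axis) against replicate 1 (horizontal axis), in the authors' units, for the 26 of 72 genes whose strongest summit had a summit within 100 bp in both ranked lists, with the line of equal signal. Replicate 2 is higher for 18 of the 26 (69.2%, against 55.6% of all genes matched in both), ifet-1 and eif-2Bgamma stand high in both, and eef-2 and gars-1 lie far to opposite sides of the line.

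Replicate values could be set beside each other for 26 genes. Of the 60 genes with a ranked summit, 42 had a summit within 100 bp in replicate 1 (70.0% against 68.7% of all genes with one). In replicate 2 there were 34 (56.7% against 61.6%), and in both 26 (43.3% against 42.8%). Neither replicate had one for 10 of the 60, beside 1744 of all 13947 genes with a ranked summit. Across the 26, which share the same 2 libraries, Spearman's rho between replicates was 0.445 and Pearson's r on the log10 scale 0.324, against 0.287 and 0.293 across 5968 genes of the genome. The ratio of replicate 2 to replicate 1 had a median of 1.10 and ran from 0.169 at eif-3.K to 4.37 at yars-2. At eef-2 the signal of replicate 2 was the higher one and at gars-1 that of replicate 1, as given above.

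The consensus of AP-2 factors, GCCNNNGGC, which reads the same on both strands, was searched in the 300 bases from 250 before to 50 after each annotated 5′ end. It was found for 3 of 72 genes, gars-1, kars-1 and eef-1G (4.17%), against 1.27% of all promoters of the same length and 0 of 81 ribosomal protein genes. The 3 sites are shown with the consensus in capitals and up to 8 flanking bases, in the direction of the gene. The gars-1 site is at chrIII:5163809-5163817 (minus strand), beginning 190 bases before the 5′ end, the kars-1 site at chrII:7072373-7072381 (minus strand), beginning 34 bases after it, and the eef-1G site at chrV:10965708-10965716 (plus strand), beginning 11 bases before it.
gars-1: ctgagattGCCATAGGCtcacttac
kars-1: atgagcgaGCCAGAGGCcaaattg
eef-1G: ggcattctGCCAGGGGCacatacgc

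Permuted palindromes of the same letters were found about as often: GCGNNNCGC in 4 of 72 promoters (5.56% against 1.97% of all), CCGNNNCGG in 3 (4.17% against 1.28%), CGCNNNGCG in 3 (4.17% against 2.09%), GGCNNNGCC in 2 (2.78% against 2.46%) and CGGNNNCCG in 0 (against 1.80%). Within 100 bp of the strongest ranked summit, the AP-2 consensus was present for 2 of 60 genes, eef-1G and tars-1 (3.33% against 1.69% of all genes with a summit). The peaks printed above at ifet-1, eif-2Bgamma, ife-1, ife-3, rars-1 and eif-3.G hold 0 matches to it, and the ife-3 peak holds 2 matches with a spacing of 2 to 4 bases between the arms. The kars-1 gene had both a promoter site, 34 bases in, and its strongest ranked summit, 200 bp in. The eef-1G summit, with a signal of 25.3 at an IDR of 0.377, lay 17 bp downstream of the 5′ end.

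Other genes of translation were taken from a list of 55 names, of which 37 matched an annotated symbol. The list was chosen with earlier results of these data known, so its shares are a description only. Of the 37, 3 had a main-list summit (8.11%, beside 1.49% of all protein-coding genes), and 34 had a ranked one (91.9%, beside 69.8%), with a median strongest signal of 32.0. The 3 were cgh-1, for the germline RNA helicase known to bind the 4E-T family of proteins to which IFET-1 belongs, with a signal of 63.9, larp-1, for a La-related mRNA-binding protein, with 68.3, and abcf-2, for an ATP-binding cassette protein, with 82.2. Of these abcf-2 was also in the conservative list. The lists for termination and recycling (4 of 5 with a ranked summit), signalling to translation (11 of 11), mitochondrial translation (4 of 5) and eIF5A and eEF2 modification (3 of 4) had 0 main-list summits.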

How the data were processed

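The data were 8 ChIP-seq peak lists of 2 replicates on ce11, a thresholded and a ranked list for each replicate, the series-level set and the conservative set. Each deposited list gives the authors' signal per peak, on an undefined scale, and the summit offset, and the deposited ranked lists give the −log10 of the global IDR. For aligner and peak caller, names and versions were not given in the sources used here. In the series-level ranked lists 16 columns without headers were not used. Depth is unknown.

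Summits were assigned to the annotated gene's 5′ end (Ensembl release 115) with Python 3.11.15, numpy 2.4.6, pandas 2.3.3 and scipy 1.17.1. A summit counted for every gene whose window held it. Replicate signals were those of the nearest summit within 100 bp. Shares have exact binomial (Clopper-Pearson) 95% intervals over genes, covering counting error only. No test was made, because the design has 1 group. Window assignment and motif search were checked on simulated data.

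Named genes were those with a summit in any thresholded list, the 20 with the highest ranked signal and other pathway genes with a main-list summit. Genes named beyond these, and the members and gene lists themselves, were chosen with earlier results of these data known. The search for repeated 50-base words was added after the peaks were seen. Alternatives were other windows, 5′ ends, lists, replicates, thresholds and motif spacings.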

Additional observations from a re-analysis of the deposited data

How the results depend on the processing

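The count of 3 genes with a main-list summit became 0 in a narrow window (500 bp upstream, 100 bp downstream), against 0.921% of all protein-coding genes. It was 6 in a wide window (2000 bp upstream, 500 bp downstream), or 8.33% against 2.60%. When any base of the peak counted it was 6, or 8.33% against 1.72%. With the nearest protein-coding 5′ end only it was 1, or 1.39% against 1.17%. In the shorter thresholded list of a single replicate the count was 0 (replicate 1, 178 peaks) and 1 (replicate 2, 241 peaks). These lists compare with 785 peaks in the main list, and the shares of all genes in them were 0.416% and 0.486%. From the 5′ end of any transcript the count was 4, which added rars-1 (5.56% against 1.68%). It was 3 in the conservative list (4.17% against 1.38%) and 2 among the upper 50% of peaks by signal (2.78% against 0.861%). Without summits near small RNA genes, which removed eif-2Bgamma, it was 2 (2.78% against 1.20%). Without peaks of 50% or more soft-masked bases it was 3 (4.17% against 1.31%). The shares of all protein-coding genes in the same settings ran from 0.416% to 2.60%. The median strongest signal of 25.7 became 13.5 in the narrow window (0 for all genes) and 35.7 in the wide one (30.1). It was 29.9 from any transcript (22.5), 20.2 by nearest 5′ end (16.1) and 25.1 in the conservative ranked list (20.5). In the ranked list of a single replicate it was 12.8 to 14.1 (10.4 to 11.4). Signals in those lists ran lower throughout, with list medians of 13.33 (replicate 1) and 14.45 (replicate 2) against 21.65. In each setting the median of the 72 genes stayed above that of all genes. The count of 60 genes with a ranked summit (83.3% against 69.8% of all) ran from 45 (62.5% against 49.2%, narrow window) to 69 (95.8% against 81.3%, wide window) over 7 alternatives. The difference was smallest by nearest 5′ end, 66.7% against 61.8%, and next in the ranked list of replicate 2 alone, 65.3% against 57.9%. At an IDR of 0.05, 7 genes passed in place of 3, and with 2 to 4 bases between the arms 6 promoters held the AP-2 motif in place of 3 (8.33% against 4.81% of all). No paired analysis was possible because the design has 1 group. Depth is unknown, so a gene without a summit cannot be told apart from one below detection.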

Other observations

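Among genes of translation outside the 72, several had ranked summits as high as the upper factor genes without passing the threshold of the main list. The mitochondrial elongation factor gene gfm-1 had a signal of 57.0, the termination factor gene erfa-1 had 56.4, the mitochondrial factor gene tsfm-1 had 51.8, mnk-1, for the kinase of eIF4E, had 50.6, and car-1, for a germline RNA-binding protein, had 50.4. The phenylalanyl-tRNA synthetase gene fars-3 had 44.9. These genes were chosen after their values were seen.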
